A study of Mus musculus with 6 samples.

Results

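The dystrophin glycoprotein complex was followed here through 8 genes, taken from the deposited table by their names: Dmd, Utrn, Dag1, Sgca, Sgcb, Sgcd, Dtna and Sntb1. All 8 were found among the 48709 genes of the deposited table, and all passed the filter on low values. RNA came from hearts of C57BL6/J mouse embryos in 2 genotypes, with 3 libraries each. Double knockout hearts were homozygous for the floxed alleles of 2 RNA-binding proteins (RBPMS flox/flox RBPMS2 flox/flox) and positive for a Cre that the labels write as XML Cre. The series calls the deletion specific to cardiomyocytes. Control hearts were from littermates homozygous for both floxed alleles, with no Cre listed. Effects of Cre and of losing the 2 genes cannot be told apart in this design. No label states the embryonic stage, the promoter that drives Cre or how many animals went into a library. The p-values here therefore speak only of spread from library to library. By sex-linked genes, library 3 of each genotype came from other animals than libraries 1 and 2. Spread between libraries 1 and 2 may be technical.

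The complex joins the actin cytoskeleton of a muscle cell to the matrix around it. Dystrophin, or its homologue utrophin, binds actin on the inside and dystroglycan in the membrane, and dystroglycan binds laminin on the outside. Sarcoglycans stabilise the complex within the membrane, while dystrobrevins and syntrophins attach to dystrophin in the cytoplasm and hold signalling proteins there. Loss of dystrophin or of a sarcoglycan leads to muscular dystrophy and often to cardiomyopathy. Values below are normalised read counts: reads per gene that appear scaled per library and rounded as deposited. Each log2 fold change is the double knockout mean minus the control mean of log2(value + 1).

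None of the 8 genes reached an adjusted p under 0.05 (limma, Benjamini-Hochberg over 26747 genes). Of all tested genes 4.86% passed that threshold. An unadjusted p under 0.05 was reached by 3 of the 8, Sgcb, Sntb1 and Dag1, against 18.7% of all tested genes. Among the 13805 tested genes with a mean of at least 50, which include all 8, it was reached by 3711. At the adjusted threshold 494 of those 13805 were higher and 600 lower. The libraries of the genotypes did not overlap in 1 of the 8, Sgcb, against 21.7% of all tested genes and 4276 of those 13805. Log2 fold changes ran from -0.23 for Dag1 to 0.34 for Sntb1, and 5 of the 8 lay above 0. Their median was 0.13, where the median was 0.02 over all tested genes and -0.014 over those 13805. Their median size regardless of sign was 0.17, against 0.22 over all tested genes and 0.14 over the 13805 tested genes with a mean of at least 50. Taking the 95% interval of each gene, the lowest lower end was 0.727-fold (Dag1) and the highest upper end 1.59-fold (Sntb1). A difference inside these intervals was neither called nor shown to be absent.

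**Figure D1:**
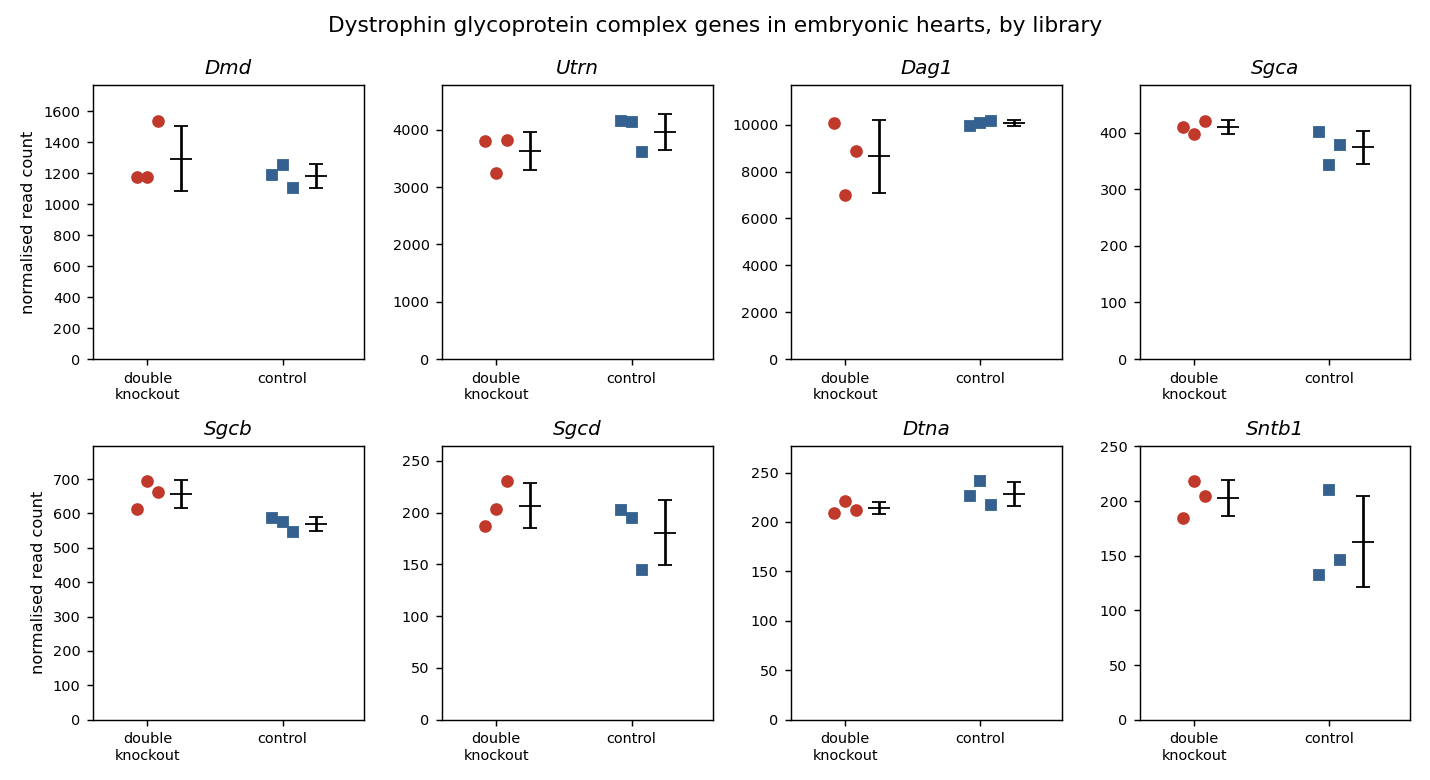
Normalised read count (linear axes from 0) of the 8 complex genes in each double knockout library (circles) and each control library (squares), shown from library 1 to 3 within a genotype; the dash and bar beside them give the mean and SD (n = 3 each). Genotypes overlap in every panel but that of Sgcb, and Dag1 is spread from 6996 to 10090 in double knockouts.

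Both targeted genes were lower in every double knockout library than in every control. Rbpms averaged 697 ± 25.6 in double knockouts and 3787 ± 210.5 in controls, and Rbpms2 averaged 1454 ± 211 in double knockouts and 2577 ± 136 in controls (SD, n = 3 each). The sum over all genes was 19770390 to 20215282 per library. Libraries numbered 3 in both genotypes had a male pattern, with Xist at 20 in the double knockout and 6 in the control, and the others a female one, with Xist at 19501 or more. Among 11905 protein-coding genes, Spearman's rho between a gene's deviation from its mean and its GC content was 0.13, -0.18 and -0.59 in double knockouts 1 to 3, and 0.28, 0.22 and 0.40 in controls 1 to 3. This trend went with genotype and was steepest in double knockout 3. The summed level of 10 cardiomyocyte genes was 496137 to 586493 in double knockouts and 600527 to 652839 in controls, without overlap, and 1 of the 10, Myh6, passed the threshold and was lower. The other 9 summed to 420903 to 496362 in double knockouts and 465302 to 503485 in controls, which overlapped; sums without the called genes were added after the data were seen. Leukocyte genes, 7 in number, summed to 396 to 474 in double knockouts and 255 to 373 in controls, with Ptprc called higher, and to 361 to 443 in double knockouts and 243 to 361 in controls without it. Sums of endothelial, fibroblast, epicardial, erythroid and neural genes overlapped between genotypes, with Emcn, of the endothelial list, called higher. All 7 erythroid genes lay above 0, with a median log2 fold change of 0.72 and none called. Their sums were 83033 to 118549 in double knockouts and 39265 to 106275 in controls. All 8 endothelial genes also lay above 0, with a median of 0.10. Defining genes of skeletal muscle were at or near 0 (Pax7 at 0, and Myod1, Myf5, Myog and Mymk with means under 10 over all libraries), and 8 genes of that tissue summed to 163 to 193 in double knockouts and 211 to 221 in controls. Of these Tnnt3 was called lower, and without it the sums were 87 to 107 in double knockouts and 80 to 100 in controls. In whole-heart RNA, fewer cells of a type and less RNA per cell cannot be told apart.

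Dystrophin is encoded by Dmd, a gene that spans chrX:82948870-85206141 on the plus strand (mm10), with 14 transcripts in GENCODE M21 and 79 exons in the longest. Dmd had 1174, 1173 and 1540 in double knockouts, against 1192, 1254 and 1102 in controls. Double knockouts 1 and 2 lay inside the range of the controls, and double knockout 3 lay above it. The log2 fold change was 0.12 ± 0.10 (SE; limma adjusted p = 0.567), with a 95% interval of 0.936-fold to 1.26-fold. Without double knockout 3 it was -0.0092 (adjusted p = 0.968), so the sign rested on that library. The 2 male-pattern libraries held the highest and the lowest Dmd value of all 6. The longest Dmd transcript had 41.5% GC, lower than all of the 8 but Sgcd. After removal of each library's trend with GC content and length, the difference was -0.018 (adjusted p = 0.915).

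A Dmd value is a sum over all transcripts of the gene, which start at widely spaced sites and encode long and short dystrophins. RefSeq gives windows before 2 starts on GRCm38.p6. The first start is the first base of the gene and lies upstream of the longest transcript. The other is 2099425 bases downstream, in intron 62 of that transcript. These 250-base windows are shown because reads from both enter 1 value, so a shift from one start to the other would not be seen in it. Both are written 5′ to 3′ on the plus strand up to the base before the start, chrX:82948620-82948869 and chrX:85048045-85048294. Capitals mark matches, on either strand, to an E-box (CANNTG), a GC box (GGGCGG, read on the other strand as CCGCCC) or a CArG box.
Dmd first start: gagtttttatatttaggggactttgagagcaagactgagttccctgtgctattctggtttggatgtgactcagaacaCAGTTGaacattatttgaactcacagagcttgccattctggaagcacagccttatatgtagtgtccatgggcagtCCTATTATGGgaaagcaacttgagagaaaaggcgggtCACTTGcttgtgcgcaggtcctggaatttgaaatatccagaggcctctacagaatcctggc
Dmd downstream start: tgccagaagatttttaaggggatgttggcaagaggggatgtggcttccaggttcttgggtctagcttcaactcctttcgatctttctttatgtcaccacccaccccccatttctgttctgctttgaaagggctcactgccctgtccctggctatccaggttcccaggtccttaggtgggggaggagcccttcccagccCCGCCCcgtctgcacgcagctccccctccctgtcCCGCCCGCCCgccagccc
The first window held 2 E-boxes, with first bases at -173 and -61 from the start, and 1 CArG box at -98, with no GC box. The downstream window held 3 GC boxes, of which those at -18 and -14 overlap, with no E-box and no CArG box. Among 32851 RefSeq windows of the same length an E-box was present in 66.2%, a GC box in 32.7% and a CArG box in 1.47%. Windows were listed for 6 of the 8 genes (8 windows), and Dmd alone among them had a CArG box. Such matches describe the letters of a window and not the binding of a factor.

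Utrophin, encoded by Utrn on chromosome 10 (12382188 to 12869365, minus strand), is the homologue that takes the place of dystrophin along much of the membrane in fetal muscle. Utrn had 3807, 3249 and 3828 in double knockouts, against 4159, 4136 and 3606 in controls. The genotypes overlapped, with double knockout 2 the lowest library of all and control 3 below the double knockouts 1 and 3. The log2 fold change was -0.13 ± 0.09 (SE; limma adjusted p = 0.473), with an interval of 0.800-fold to 1.04-fold. Its sign was kept under each of the 18 alternatives, with log2 fold changes of -0.24 to -0.05 and adjusted p of 0.0898 to 0.772.

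Utrn was lower relative to Dmd in each double knockout library than in each control. The log2 difference between them within a library, which does not depend on the scale of the library, was 1.70, 1.47 and 1.31 in double knockouts, against 1.80, 1.72 and 1.71 in controls. The means were 1.49 ± 0.19 in double knockouts and 1.74 ± 0.05 in controls (SD, n = 3 each), a difference of -0.25 with a two-sided exact permutation p of 0.1, which is the smallest p that 3 against 3 libraries can give. This permutation test thus cannot reach 0.05 for this comparison. The gap between double knockout 1 and the lowest control was 1.70 against 1.71. With the GC and length trend removed the difference was -0.16. Leaving out 1 library at a time gave -0.35 to -0.16.

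Dystroglycan is made from Dag1 as 1 precursor that is cut into the laminin-binding alpha subunit and the membrane-spanning beta subunit. Dag1 (chromosome 9, 108204634 to 108263958, minus strand) had 10090, 6996 and 8892 in double knockouts, against 9928, 10072 and 10169 in controls. Double knockout 1 fell inside the range of the controls, and double knockouts 2 and 3 below it. The mean was 8659 ± 1560 in double knockouts and 10056 ± 121 in controls (SD, n = 3 each). The log2 fold change was -0.23 ± 0.11 (SE; limma adjusted p = 0.254), and the 95% interval ran from 0.727-fold to 0.997-fold. It was -0.086 without double knockout 2 (adjusted p = 0.584) and -0.35 without double knockout 1 (adjusted p = 0.0792).

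The sarcoglycans are membrane proteins that assemble as a unit. Sgca, the alpha subunit found in striated muscle (chromosome 11, 94962791 to 94976327, minus strand), had 410, 397 and 421 in double knockouts, against 401, 343 and 378 in controls. Values of double knockouts were close together and overlapped the controls only through control 1 (log2 fold change 0.13 ± 0.10 SE, limma adjusted p = 0.513). Sgcb, the beta subunit (chromosome 5, 73632749 to 73647790, minus strand), had 613, 693 and 663 in double knockouts, against 586, 576 and 546 in controls. Each double knockout exceeded each control, by a log2 fold change of 0.20 ± 0.09 (SE) that did not pass the threshold (limma adjusted p = 0.236; adjusted p = 0.144 to 0.639 under the alternatives). Sgcd, the delta subunit (chromosome 11, 46896253 to 47988969, minus strand), had 187, 203 and 230 in double knockouts, against 202, 195 and 145 in controls. Control 3 stood below the other libraries, and the remaining ones overlapped (0.20 ± 0.14 SE, limma adjusted p = 0.473). The longest Sgcd transcript had the lowest GC content of the 8, 37.7%, and without the GC and length trend its difference was 0.036 (adjusted p = 0.906).

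On the cytoplasmic side, Dtna encodes alpha-dystrobrevin, which binds dystrophin and the syntrophins. Dtna (chromosome 18, 23415135 to 23659715, plus strand) had 209, 221 and 212 in double knockouts, against 226, 241 and 217 in controls. The libraries lay close together, with coefficients of variation of 2.92% in double knockouts and 5.32% in controls, and the genotypes overlapped (log2 fold change -0.09 ± 0.12 SE, limma adjusted p = 0.713). Of the 8 genes, it was the only one whose exons shared bases with another annotated gene in GENCODE M21, 90 bases with Gm47898 on the opposite strand. Sntb1 encodes beta-1-syntrophin, an adaptor that brings signalling proteins to the complex. Sntb1 (chromosome 15, 55636388 to 55906949, minus strand) had 185, 218 and 205 in double knockouts, against 132, 210 and 146 in controls. Control 2 lay among the double knockouts and the other controls below them (0.34 ± 0.16 SE, limma adjusted p = 0.243). Without control 2 the log2 fold change was 0.54 (adjusted p = 0.0526), the lowest adjusted p of any of the 8 genes under any of the 18 alternatives.

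No library was extreme for all 8 genes. Double knockout 2 was the lowest library for 2 of them, Utrn and Dag1, and the highest for 2, Sgcb and Sntb1. Double knockout 3 was the highest for Dmd, Sgca and Sgcd, and control 3 the lowest for Dmd, Sgcb and Sgcd. The 8 genes thus did not share 1 order of libraries.

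Per kb of exon, Dag1 had the highest level of the 8 and Dtna the lowest in both genotypes. Dag1 averaged 1362 ± 245 per kb in double knockouts and 1582 ± 19.1 in controls (SD, n = 3 each). Utrn, Sgca and Sgcb followed: Utrn had 212 ± 19.2 in double knockouts and 232 ± 18.3 in controls, Sgca had 236 ± 6.92 in double knockouts and 216 ± 16.8 in controls, and Sgcb had 162 ± 9.97 in double knockouts and 141 ± 5.14 in controls. Dmd stood below them at 54.4 ± 8.89 per kb in double knockouts and 49.7 ± 3.21 in controls. Sntb1, Sgcd and Dtna completed the order. Neighbours in it did not overlap in either genotype, except Utrn and Sgca in controls, whose libraries overlapped. The exons of all annotated transcripts were merged for this length. Divided by the longest transcript instead, Utrn preceded Sgca in both genotypes and the order of Sntb1, Sgcd and Dtna changed, so the order of those genes depends on the length chosen.

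**Figure D2:**
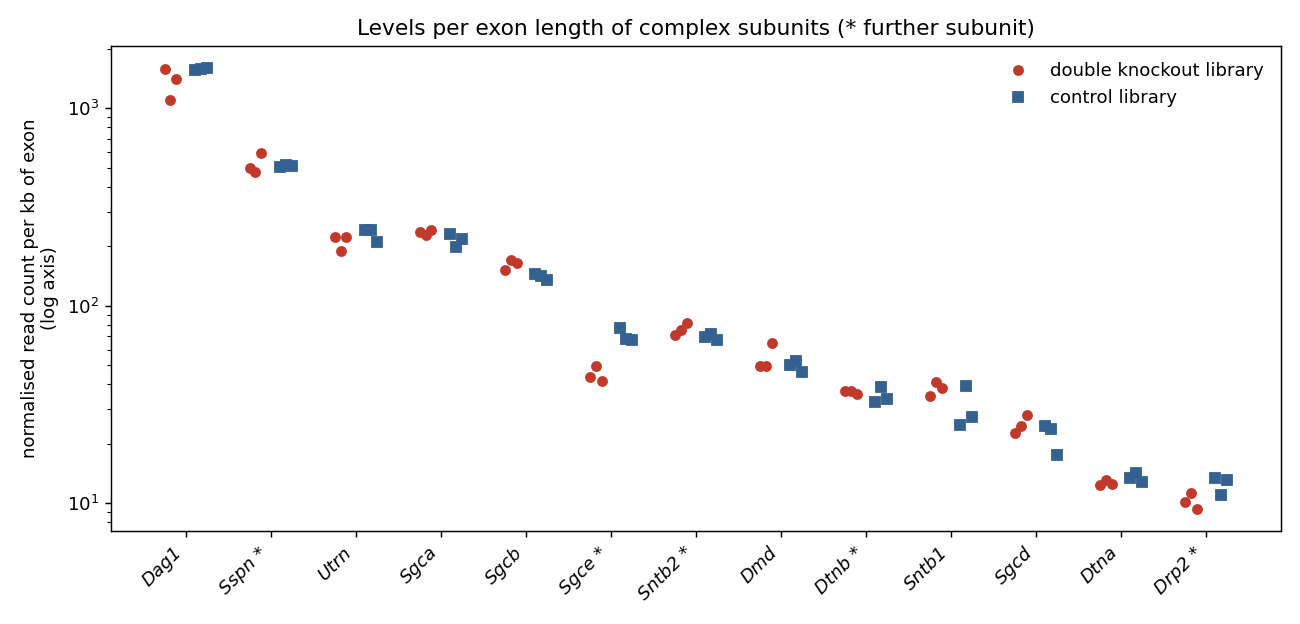
Normalised read count per kb of merged exon (log axis) for the 8 complex genes and the 5 further subunits with a mean of at least 50 (marked with an asterisk), in double knockout libraries (circles) and control libraries (squares), ordered by the control mean. Levels run from above 1000 for Dag1 to near 10 for Dtna and Drp2, and the genotypes do not overlap for Sgcb and Sgce.

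Further subunits of the complex were read from 8 genes. Of these, 1 fell and none rose (limma adjusted p under 0.05; 2.31% of all tested genes were higher and 2.55% lower). Sgce encodes epsilon-sarcoglycan, a homologue of the alpha subunit that is expressed in many tissues, smooth muscle among them. Sgce (chromosome 6, 4674350 to 4747207, minus strand) had 462, 527 and 441 in double knockouts, against 816, 721 and 710 in controls. Each double knockout lay below each control, and Sgce fell by 0.65 on the log2 scale (SE 0.10, limma adjusted p = 0.000469). The call held with each library left out in turn (adjusted p up to 0.0152), and was lost without both libraries numbered 3 (-0.64, adjusted p = 0.142). That setting called 38 genes in all and also lost the call of the targeted gene Rbpms2 (adjusted p = 0.142). Summed levels of 8 smooth muscle and mural genes moved the same way, at 9719 to 13436 in double knockouts and 17859 to 18924 in controls, with 2 of the 8 lower (Cnn1 and Smtn) and none at 0. Without these 2 the sums were 7391 to 10228 in double knockouts and 11194 to 11855 in controls. The most abundant gene left was Tagln, at 4708 ± 1393 in double knockouts and 6914 ± 443 in controls (SD, n = 3 each). By log2 fold change 7 of the 8 lay below 0. Pdgfrb lay above it, at 1158 ± 173 in double knockouts and 1037 ± 161 in controls (SD, n = 3 each). Myh11 and Rgs5 were low, with means of 15.8 and 30.0 over all libraries. The part of these 8 genes in the Sgce difference was not tested.

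The remaining subunits did not pass the threshold. Sspn, which encodes the small membrane protein sarcospan that travels with the sarcoglycans, had 2490, 2384 and 2958 in double knockouts, against 2507, 2579 and 2546 in controls (log2 fold change 0.031, limma adjusted p = 0.888). Sntb2, for beta-2-syntrophin, averaged 788 ± 58.9 in double knockouts and 717 ± 25.5 in controls, and Dtnb, for beta-dystrobrevin, averaged 353 ± 6.66 in double knockouts and 336 ± 32.5 in controls (SD, n = 3 each). Drp2, a dystrophin-related gene known from the nerve sheath, averaged 87.7 ± 8.02 in double knockouts and 107 ± 11.4 in controls. Sgcz, Sntg1 and Sntg2 had 0 to 16 in every library, too few to compare.

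**Figure D3:**
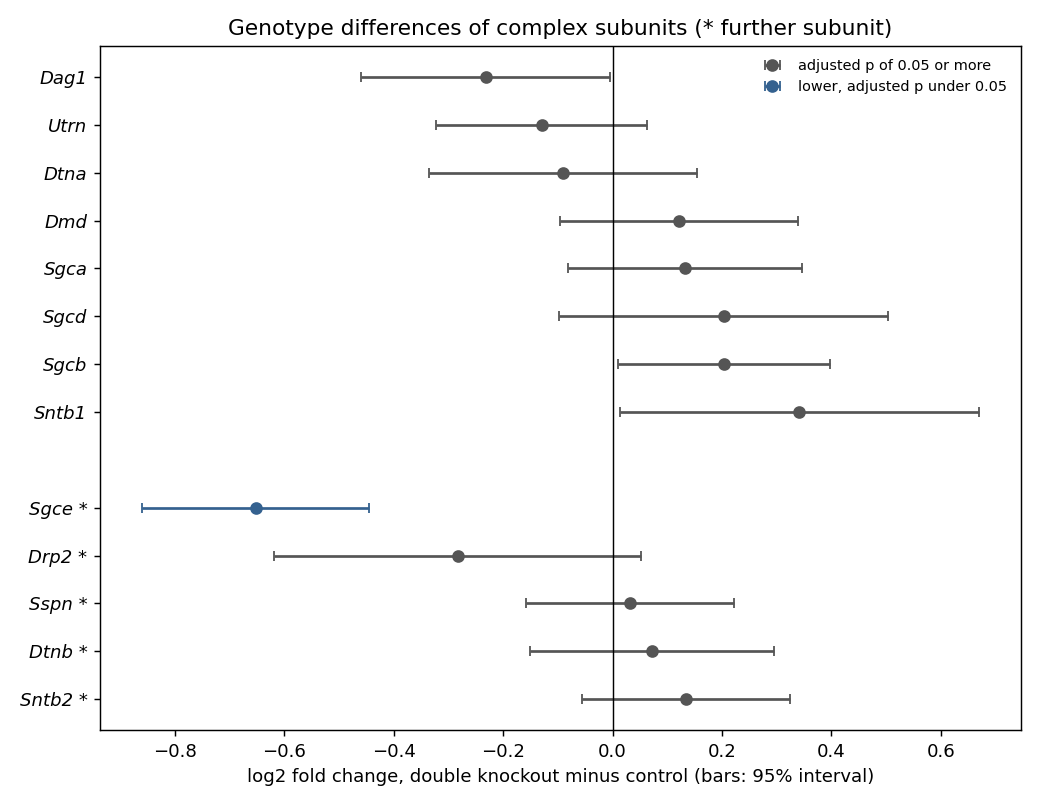
Log2 fold change, double knockout minus control, of the 8 complex genes (top) and 5 further subunits (bottom, marked with an asterisk), with the 95% interval from limma; colour marks adjusted p under 0.05. The 8 complex genes lie between -0.23 and 0.34 with none past the threshold, while Sgce is at -0.65.

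Ratios between related subunits are described without a test, because they were chosen after the values were seen. The level of Sgce per kb was 0.184, 0.217 and 0.171 times that of Sgca in double knockouts, against 0.333, 0.344 and 0.307 times in controls. The level of Dtna per kb was 0.333, 0.351 and 0.349 times that of Dtnb in double knockouts, against 0.412, 0.366 and 0.379 times in controls. Neither ratio overlapped between genotypes, though double knockout 2 and control 2 lay close for Dtna over Dtnb. Ratios among the sarcoglycans of the 8 did overlap: Sgcb over Sgca averaged 0.687 ± 0.055 in double knockouts and 0.654 ± 0.056 in controls, and Sgcb over Sgcd averaged 6.50 ± 0.56 in double knockouts and 6.53 ± 0.99 in controls (SD, n = 3 each).

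**Figure D4:**
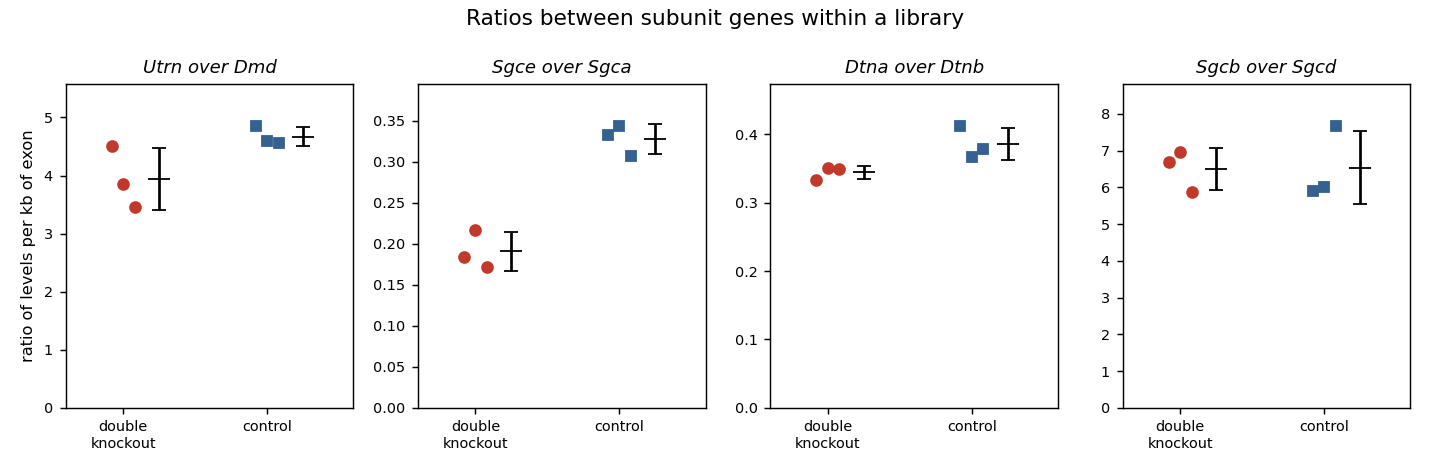
Ratio of levels per kb of exon between 2 genes of the same library (linear axes from 0), in double knockouts (circles) and controls (squares), with mean and SD (n = 3 each). Utrn over Dmd, Sgce over Sgca and Dtna over Dtnb are lower in every double knockout than in every control, and Sgcb over Sgcd overlaps.

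Enzymes that build the laminin-binding sugar of alpha-dystroglycan were followed in 16 genes. None of the 16 passed the threshold, against 4.86% of all tested genes, and none reached an unadjusted p under 0.05, against 18.7%. Of the 13805 tested genes with a mean of at least 50, which include these 16, 3711 reached that unadjusted p. Their median log2 fold change was -0.083, with a range of -0.23 to 0.23. The most abundant was Pomgnt1, which adds N-acetylglucosamine to O-mannose. Pomgnt1 had 1763, 1488 and 1554 in double knockouts, against 1446, 1557 and 1557 in controls, which overlapped (0.073, limma adjusted p = 0.696).

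Among 12 matrix proteins that bind dystroglycan or its laminins, none passed the threshold and 4 had an unadjusted p under 0.05, which 18.7% of all tested genes had. Of the 13805 tested genes with a mean of at least 50, which include these 12, 3711 had it. The median log2 fold change was 0.028. The most abundant were Hspg2, for the proteoglycan perlecan, at 21549 ± 3908 in double knockouts and 24656 ± 1230 in controls, and Lamc1, for the laminin gamma-1 chain, at 16015 ± 1360 in double knockouts and 15548 ± 701 in controls (SD, n = 3 each). Lama2, for the laminin alpha-2 chain of muscle, named after its values were seen, had 1429, 1278 and 943 in double knockouts, against 960, 972 and 767 in controls (0.42, limma adjusted p = 0.147).

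Cytoplasmic partners changed in both directions, with 3 of 18 higher and 2 lower, beside a background of 2.31% higher and 2.55% lower. Among the 13805 tested genes with a mean of at least 50, which include all of these but Nos1, 494 were higher and 600 lower. Actg1 and Actb, the cytoplasmic actins to which dystrophin and utrophin can bind, rose. Actg1 averaged 33694 ± 2924 in double knockouts and 21321 ± 1702 in controls (0.66 ± 0.09 SE, limma adjusted p = 0.000143), and Actb averaged 25240 ± 2744 in double knockouts and 17921 ± 1553 in controls (0.49 ± 0.09 SE, limma adjusted p = 0.00387). Cav3, a caveolin of muscle that binds beta-dystroglycan, had 629, 759 and 690 in double knockouts, against 1085, 909 and 1000 in controls (-0.53 ± 0.10 SE, limma adjusted p = 0.00282). Krt8, a keratin, rose by 0.53 (limma adjusted p = 0.0404), and Ank3, for ankyrin-G, which binds dystrophin and beta-dystroglycan, named after its values were seen, fell by 0.32 (limma adjusted p = 0.0458). Calls of Actb and Cav3 were lost without control 1 (adjusted p = 0.0743 for Actb and 0.0550 for Cav3) and without the robust option (adjusted p = 0.0876 for Actb and 0.0562 for Cav3). Leaving out any control, double knockout 1 or double knockout 2 ended the call of Krt8 (adjusted p up to 0.172), and leaving out any control, double knockout 2 or double knockout 3 ended that of Ank3 (adjusted p up to 0.175). Neither was called with voom weights or without the robust option, and Ank3 was also not called with upper-quartile scaling (adjusted p = 0.0576). Nos1, the neuronal nitric oxide synthase that syntrophin anchors in adult muscle, named after its values were seen, had 8, 6 and 2 in double knockouts, against 1, 4 and 5 in controls.

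The integrin system attaches muscle cells to laminin in parallel with dystroglycan. Of its 11 genes, 1 fell and none rose, where 2.55% of all tested genes were lower and 2.31% higher. Tln2, for the integrin-binding protein talin-2, had 3893, 3054 and 3405 in double knockouts, against 4684, 4945 and 4405 in controls (-0.44 ± 0.09 SE, limma adjusted p = 0.00838). The call of Tln2 was lost without control 1 (adjusted p = 0.0743) or double knockout 3 (adjusted p = 0.0691), with voom weights (adjusted p = 0.0528) and without the robust option (adjusted p = 0.0886). Without both libraries numbered 3, the calls of Actg1 (adjusted p = 0.0991), Actb, Cav3, Krt8, Ank3 and Tln2 were all lost. So was that of the targeted gene Rbpms2 (adjusted p = 0.142), so a call lost in this setting says little about a gene. The smooth muscle sum given above moved with these differences, as did Myh6 and Ptprc, and their part was not tested. Of 10 genes of membrane repair none passed the threshold, which 4.86% of all tested genes did. Its most abundant were the annexin genes Anxa6, at 8099 ± 638 in double knockouts and 9537 ± 309 in controls, and Anxa2, at 5242 ± 800.003 in double knockouts and 4808 ± 67.6 in controls (SD, n = 3 each).

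**Figure D5:**
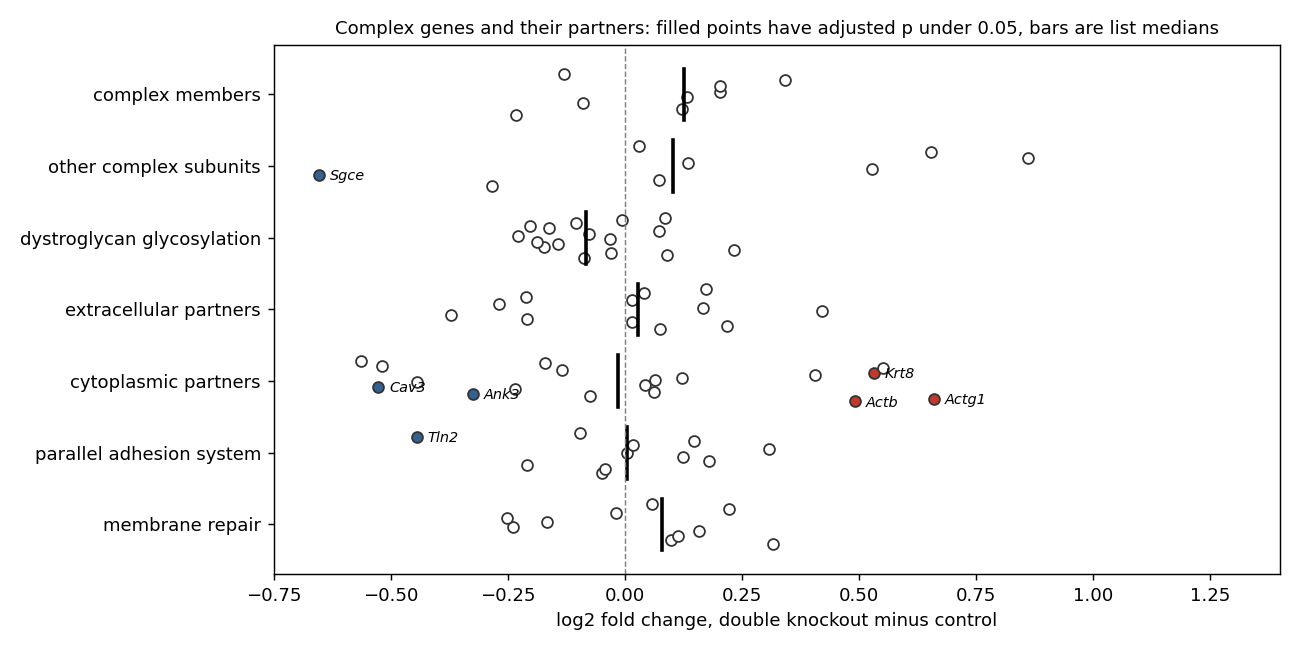
Log2 fold change, double knockout minus control, of each gene in 7 lists of the complex and its partners; filled points have limma adjusted p under 0.05 and are named, and vertical bars are list medians. Filled points are absent among the 8 complex genes, the 16 glycosylation genes, the 12 extracellular partners and the 10 membrane repair genes.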

How the data were processed

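Per the labels' protocols, RNA was purified on columns with DNase digestion and sequenced single-end from stranded mRNA libraries. DESeq2, DESeq, featureCounts 1.5.0, STAR 2.4.2a, Trimmomatic and mm10 are listed, without role or order, in the submitters' processing notes; annotation, strand setting and filters were not given in these sources. The authors deposited a score per gene and library, here normalised read counts rounded to whole numbers; scaling is not stated in these sources and was read from low whole numbers that never occur, at a median spacing of 19 in double knockout 1 and 21 in control 3. The values were therefore not put into a count model. Depth limits the precision of low genes.

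The test was limma (version 3.58.1, under R 4.3.3), applied to log2(value + 1) of the 26747 genes averaging at least 1 in either genotype, with trended and robust variance moderation, two-sided, with Benjamini-Hochberg adjustment and a threshold of 0.05. No library duplicated another, and correlations of libraries across genes (Pearson) were 0.980 to 0.986. Coordinates, exon lengths and GC content came from GENCODE M21 (mm10), which held 99.3% of the table's identifiers; windows before starts came from RefSeq GRCm38.p6. The 8 genes and 16 lists (151 entries, 4 matched by an older symbol) were chosen with earlier results of these data known. Named were the 8 genes, further subunits past the threshold or with a mean of at least 50, up to 4 called genes of each other list or its 2 most abundant where none was called, and the targeted genes; genes with profiles like a called member would also have been named, and none was called. Some genes of the complex and its partners are not reported here. The alternatives were another moderation or weighting, pseudocounts of 0.5 and 5, other filters, rescaling, replicate number as a block, removal of a GC and length trend (splines of 5 degrees of freedom) and leaving out libraries.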

Additional observations from a re-analysis of the deposited data

How the results depend on the processing

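None of the 8 complex genes passed the threshold under any of the 18 alternatives (144 results, lowest adjusted p 0.0526), and the count of lower members was 0 throughout. The sign turned in 5 of the 144. Dmd was at -0.018 with the GC and length trend removed, with and without the replicate block, at -0.059 without both libraries numbered 3, and at -0.0092 to 0.19 with 1 library left out; Sgcd was at -0.027 without both libraries numbered 3. Sspn was at -0.020 with the trend removed, with and without the block, at -0.062 without both libraries numbered 3, and at -0.062 to 0.093 with 1 library left out. The cause was not tested. The difference of Utrn relative to Dmd kept its sign in 11 alternatives (-0.35 to -0.16). The number of genes differing between genotypes was 1299, but 350 without the robust option, 606 with voom weights, 38 without both libraries numbered 3 and 420 to 1253 with 1 library left out. Same-numbered libraries correlated at 0.05, 0.07 and 0.33 in their deviations from the genotype means. The highest value of any pair, 0.33, was that of the male-pattern libraries numbered 3. Double knockout 1 correlated best with control 2 (0.17), and double knockout 2 with control 1 (0.17). Deviations of 3 libraries from their own mean are tied to each other, so these values cannot decide whether the numbers pair libraries. With replicate number as a block 1355 genes differed, 0 of the 8 among them, Ank3 was not called (adjusted p = 0.0877), and the paired difference of Utrn relative to Dmd was -0.25 (exact sign-flip p = 0.25). With 3 pairs that is the smallest p the sign-flip test can give. Among the 12 extracellular partners, up to 2 were called in either direction under some alternatives. Depth limits low genes such as Nos1 and Sgcz.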
